A study of Mus musculus with 17 samples.

Results

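Vessel cells can enter a sorted sample as unwanted neighbours, and 10 genes that mark them were followed in cells sorted from both walls, dorsal and lateral, of the subventricular zone (SVZ) after birth. Of these, 8 mark endothelial cells, which line blood vessels (Kdr, Flt1, Tek, Adgrf5, Cdh5, Cldn5, Pecam1 and Esam), and 2 mark mural cells, the pericytes and smooth muscle cells wrapped around vessels (Pdgfrb and Rgs5). They were chosen by name, and their probes were found through the gene name in the scanner files, where Adgrf5 carries its older name Gpr116. All 10 were on the array and all 10 passed the filter on dim probes, among 26458 genes tested. The arrays carry 19 probes for them, of which 17 bear the gene's name in the newer of the files' annotations and the others (1 of Kdr and 1 of Flt1) only in the older.

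Neural progenitors of CD1 mice were electroporated in the living animal at postnatal day 1, in either the dorsal or the lateral wall, and GFP-positive cells were later collected by fluorescence-activated cell sorting. The 17 arrays each carried a dorsal sample labelled with Cy3 and a lateral sample labelled with Cy5, giving 34 samples. The time after electroporation was 8 hours for 2 arrays, 1 day for 3, 2 days for 2, 4 days for 3, 7 days for 3 and 14 days for 4. Every group thus shares the strain, the electroporation and the sort. No gate against vessel or blood cells is described in the labels, which also name neither the plasmid nor the number of animals per sample. The dyes were never swapped, so a constant dye bias of a probe stays in each dorsal minus lateral difference, whereas it cancels in changes over time. The labels call the RNA of the Cy3 sample polyA RNA and that of the Cy5 sample total RNA, and they call arrays of a time point biological replicates.

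The share of probes well above background was 41.0 to 76.7% in dorsal samples and 56.4 to 79.4% in lateral ones, and the number of arrays limits the precision. Across genes, 1 day replicate 1 correlated with the others at a median r of 0.69 and 14 days replicate 2 at 0.77, lower than any other array, and both are called arrays that stood apart below. All 1 day arrays shared a slide that held no other time, and so did all 14 days arrays, so that these times cannot be told apart from their slides. The 8 hours arrays shared a slide with 1 array of 4 days and 1 of 7 days, and the remaining 6 arrays lay on 2 slides that each held 2, 4 and 7 days.

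Endothelial cells form the inner wall of vessels. They respond to vascular endothelial growth factors through receptors such as Kdr and to angiopoietins through Tek, and they are sealed to each other by adherens and tight junctions. In the brain these junctions are part of the blood-brain barrier, and pericytes held on the vessel by Pdgfrb signalling help to maintain it. In the SVZ, vessels run close to the neural progenitors. Levels below are log2 normalized fluorescence intensities. A level is a property of a probe, so levels are compared between samples and not between genes. In bulk samples, fewer cells of a type and less RNA per cell cannot be told apart.

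The results turn on a few probes, and for some genes on which probe is read. The first 30 of each probe's 60 bases are shown, as the files give them, for the gene with most of the called changes (Adgrf5), for the endothelial gene that varied most (Cldn5), and for Flt1 and Rgs5, whose probes disagreed.
Adgrf5 A_51_P156218: aggtcaatagaagtctggttccttgagaat
Cldn5 A_51_P189814: tcctactgagatcctgggggcactagatgc
Flt1 A_52_P405145: tccctatcccaactacacattcaatcttct
Flt1 A_52_P520859: cctgtattattccgattttaataatctaat
Flt1 A_51_P398723: aagtaaagaaaagctatcgggattctctgg
Rgs5 A_52_P136782: agagtaccgctgtgttatctggacattctc
Rgs5 A_51_P354934: gaatgaaggagaatcaaactgcatcttgct
Per the file headers (mm9), the Adgrf5 probe lies on the plus strand at chr17:43596281-43596340 and the Cldn5 probe on the plus strand at chr16:18778046-18778105. The Flt1 probes lie on the minus strand at chr5:148465976-148466035, chr5:148373864-148373923 and chr5:148373791-148373850 in the order shown, so the first is 92.2 kb from the last in the genome and the other two are 0.1 kb apart. Both Rgs5 probes lie on the plus strand, at chr1:171623021-171623080 and chr1:171624818-171624877. The files tie the last 2 Flt1 probes to a RefSeq transcript and the first, the brightest probe of the gene, to a cDNA clone. Exons and untranslated regions were not assigned, since no annotation of that build was used here.

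RNA of genes on the vessel list was found in every sample, and the full endothelial set in the lateral samples of 8 hours alone. Of the members, 4 (Cldn5, Pecam1, Esam and Pdgfrb) were well above background in all 34 samples, as were 9838 of the 26458 genes (37.2%). Pdgfrb, listed here as mural, gave r = 0.69 with the mean of 6 radial glia genes over the 34 samples. With the mean of 16 other mural genes it gave 0.44. Adgrf5 reached that level in 5 samples, Tek in 9, Cdh5 and Rgs5 in 15 each, Kdr in 16 and Flt1 in 31. Counted over the 8 endothelial members by their brightest probe, as in the counts above, all 8 were well above background in both lateral samples at 8 hours, against 5 and 7 in the dorsal ones. In the dorsal sample of 8 hours replicate 1, other Flt1 probes were well above background (6.80, 10.45 and 10.50), where the brightest was not (6.32). The count at 1 day was 5, 7 and 5 in the dorsal samples and 5, 4 and 4 in the lateral ones. For 2 days it was 6 and 7 in the dorsal samples and 4 in each lateral one. At 4 days 3 or 4 of the 8 were well above background by the brightest probe, in each of the 6 samples. By that probe Kdr, Tek, Cdh5 and Adgrf5 were then well above background in none of the 6. The second probe of Kdr was in both samples of 4 days replicate 3 (6.28 and 6.30), and that of Tek in the dorsal sample of replicate 1 (6.64) and the lateral sample of replicate 2 (6.41). At 7 days the count was 6, 7 and 6 in the dorsal samples and 4, 7 and 5 in the lateral ones, and at 14 days it was 4 to 7.

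**Figure D1:**
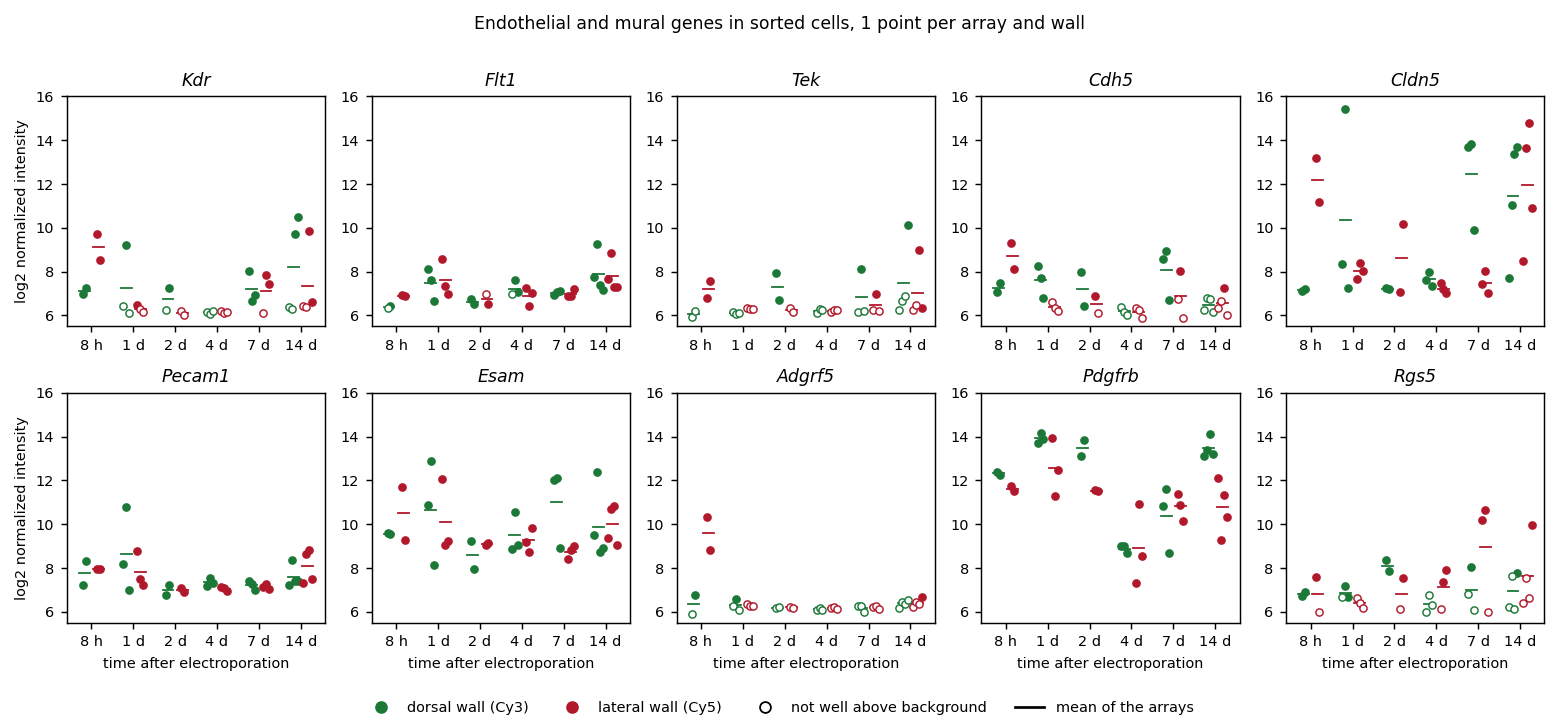
Log2 normalized intensity (y axis) of each of the 10 genes by time after electroporation (x axis), with 1 point per array for the dorsal (green) and lateral (red) wall, open where the probe was not well above background, and a bar for the mean of the arrays. Adgrf5 is high only in the 2 lateral samples of 8 hours, Cldn5 spans 7.01 to 15.43, and dorsal Pdgfrb is lowest at 4 days.

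Adgrf5, an adhesion G protein-coupled receptor of endothelial cells, gave most of the called changes. Its lateral level was 10.35 and 8.84 on the 2 arrays of 8 hours. The dorsal levels on the same arrays were 5.91 and 6.78, the first not well above background. Both lateral samples were above every other sample of the series, in which Adgrf5 lay between 5.91 and 6.78. The wall difference at 8 hours, dorsal minus lateral, was -3.25 ± 0.38 on the log2 scale (SE, n = 2 arrays), or 9.53-fold higher in the lateral samples, with an adjusted p of 0.0023 from limma over all genes. The SE comes from the spread over all 17 arrays. On most later arrays Adgrf5 was not well above background in either wall, and its differences varied little there. The call rests on 2 arrays whose own differences were -4.44 and -2.06. It was lost in the deposited value table (-5.18, adjusted p = 0.098), and a stricter filter on dim probes left the gene out. At this time 1 of the 10 members was called, against 0.378% of all genes.

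Later wall differences of Adgrf5 lay between -0.05 and 0.01 at every time, and the gene was well above background in 1 dorsal sample of 1 day and 1 lateral sample of 14 days. Its change of the wall difference with time missed the threshold (adjusted p = 0.071 by limma's F test), as did every other member, where 0.0984% of all genes were called. Over the equal-weight mean of the 6 times it was lower in the dorsal samples by the test (-0.56 ± 0.13, adjusted p = 0.048, limma), the 1 member called in that comparison against 2.38% of genes. That mean comes almost wholly from the 8 hours value of -3.25 and is no separate result. Its adjusted p was 0.061 without the pair of arrays that stood apart, and it lay between 0.052 and 0.127, so that the call was lost, without any one array of 1, 2, 4, 7 or 14 days. With 8 hours replicate 2 left out, the change with time passed the test (adjusted p = 0.0017).

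In the lateral wall the Adgrf5 level changed over the 6 times (range of the means 3.42, adjusted p = 6.76e-04, limma's F test) and fell by 3.18 ± 0.34 on the log2 scale from 8 hours to 14 days (adjusted p = 2.30e-04, limma), where it was well above background on 1 of 4 arrays. It was the 1 member called in each of these tests, against 4.64% and 2.19% of genes. On the mean of both walls the step from 8 hours to 1 day was -1.67 ± 0.23 (adjusted p = 0.0030, limma), the 1 member called against 1.42% of genes, and without 8 hours replicate 1 its adjusted p was 0.077. On the slide of the 8 hours arrays, the array of 4 days gave 6.10 in the dorsal and 6.11 in the lateral sample and that of 7 days gave 6.01 and 6.14, so the 8 hours lateral samples were also high within that slide. These called changes all rest on the same lateral samples of 8 hours as the wall difference at that time, and on a spread taken over all arrays. Other lists differed over the same times. Of the 10 microglia genes 0 were higher at 1 day than at 8 hours (median -3.88, none called), and 1 was higher in the lateral wall at 14 days than at 8 hours (median -2.36, Cd68 called lower). All 6 neuroblast genes were higher in the lateral wall at 14 days (median 3.00), 4 of them called. Their part in the Adgrf5 changes was not tested.

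Other cell type markers differed between the walls on the same 2 arrays. Of 25 other endothelial genes, 8 were higher in the dorsal samples at 8 hours (median -0.68, none called), where the median over all genes was -0.02. Their mean level, centred per gene, was 0.44 and 0.59 in the dorsal samples and 1.55 and 0.72 in the lateral ones. Of the 10 microglia genes 0 were higher in the dorsal samples (median -1.33, none called), with centred means of 0.79 and 0.86 against 2.11 and 2.39. Of 6 erythroid genes 5 were higher in the dorsal samples (median 3.43, none called), with centred means of 3.31 and 2.96 against -0.20 and 0.30. Of 6 radial glia genes 5 were higher in the dorsal samples (median 1.28, none called), and of 6 neuroblast genes 3 were (median -0.21). In the neuroblast list Dlx2 was called, lower in the dorsal samples (-3.99 ± 0.33, adjusted p = 3.36e-04, limma), where 0.378% of all genes were called. Between 6 and 10 of the microglia genes and between 2 and 6 of the erythroid genes were well above background in every sample. The part of these cells in the Adgrf5 result was not tested.

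Kdr, the main signalling receptor for vascular endothelial growth factor A, was also higher in the lateral wall at 8 hours on both arrays but did not pass the test. Its levels were 9.73 and 8.53 in the lateral samples and 6.97 and 7.24 in the dorsal ones, which do not overlap. The wall difference was -2.02 ± 1.00 (SE, n = 2; adjusted p = 0.75, limma), within the spread that all arrays share. Later it was high in single samples: 9.21 in the dorsal sample of 1 day replicate 2, 8.04 in that of 7 days replicate 1, and 9.73 and 9.85 in the dorsal and lateral samples of 14 days replicate 3. The highest level of all, 10.50, was in the dorsal sample of 14 days replicate 4, whose lateral partner gave 6.63. In the 6 samples of 4 days it lay between 6.06 and 6.20. Without 14 days replicate 3 the lateral level of Kdr fell by 2.64 from 8 hours to 14 days (adjusted p = 0.013, limma) and its lateral time course passed (0.019), whereas with that array neither did (0.41 and 0.25). The second Kdr probe stayed between 6.06 and 6.53 in all samples.

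Tek, the angiopoietin receptor, was well above background in both lateral samples of 8 hours (6.82 and 7.59) and in neither dorsal sample, at least 1.99-fold higher in the lateral ones. The fitted difference of -1.13 ± 0.89 did not pass limma's test. At 2 days both dorsal samples (7.93 and 6.71) and neither lateral sample were well above background, with a fitted difference of 1.07 ± 0.89 (2.10-fold, adjusted p = 0.93, limma). The highest Tek levels were 10.12 in the dorsal sample of 14 days replicate 4 and 8.99 in the lateral sample of 14 days replicate 3, the same 2 samples that led for Kdr. The second Tek probe was highest at 7.81 in the lateral sample of 1 day replicate 2, where the first probe gave 6.31.

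Flt1, a decoy receptor that binds the same growth factors and is also made in a soluble form, read differently by probe. The brightest probe, A_52_P405145, was low at 8 hours (dorsal 6.32 and 6.42, lateral 6.92 and 6.90) and had its highest levels in 14 days replicate 2 (9.24 and 8.84) and 1 day replicate 1 (8.12 and 8.58), the 2 arrays that stood apart. It was called in no comparison, save with alternative processing given below.

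Probe A_52_P520859 gave the opposite course. Its dorsal levels at 8 hours were 10.50 and 9.41 and its lateral levels 10.16 and 8.50, against 5.97 to 7.90 in the later dorsal samples and 5.92 to 8.34 in the later lateral ones, the last in 14 days replicate 3. The neighbouring probe A_51_P398723 gave 10.45 and 9.32 in the dorsal and 10.24 and 8.90 in the lateral samples of 8 hours, and 6.23 to 8.36 in every later sample. These 2 probes separate the 8 hours samples of each wall from all later ones, and they do not separate the walls.

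With every probe tested on its own, a choice made after the probes were seen to disagree, both fell between 8 hours and 1 day. The step on the mean of both walls was -3.49 ± 0.48 for A_52_P520859 (adjusted p = 0.0028, limma) and -2.68 ± 0.45 for A_51_P398723 (adjusted p = 0.0095), where 1.38% of all probes were called. Both also fell from 8 hours to 14 days in the dorsal wall (-3.72 ± 0.40, adjusted p = 4.14e-04, and -3.09 ± 0.41, adjusted p = 0.0015), where 1.55% of probes were called. In the lateral wall the differences were -2.65 ± 0.61 (adjusted p = 0.044) and -2.51 ± 0.58 (adjusted p = 0.042), where 1.98% were. The F test over the 6 times called both in the dorsal wall (adjusted p = 0.0017 and 0.0062; 3.11% of probes) and neither in the lateral wall (0.057 and 0.068; 4.08%). The 3 other Flt1 probes were called in none of these 5 tests. As the slide of 8 hours held no 1 day or 14 days array, the slide cannot be told apart from time in these steps. Its arrays of 4 days and 7 days gave 5.97 and 6.10 (dorsal) and 6.04 and 5.95 (lateral) for A_52_P520859.

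**Figure D2:**
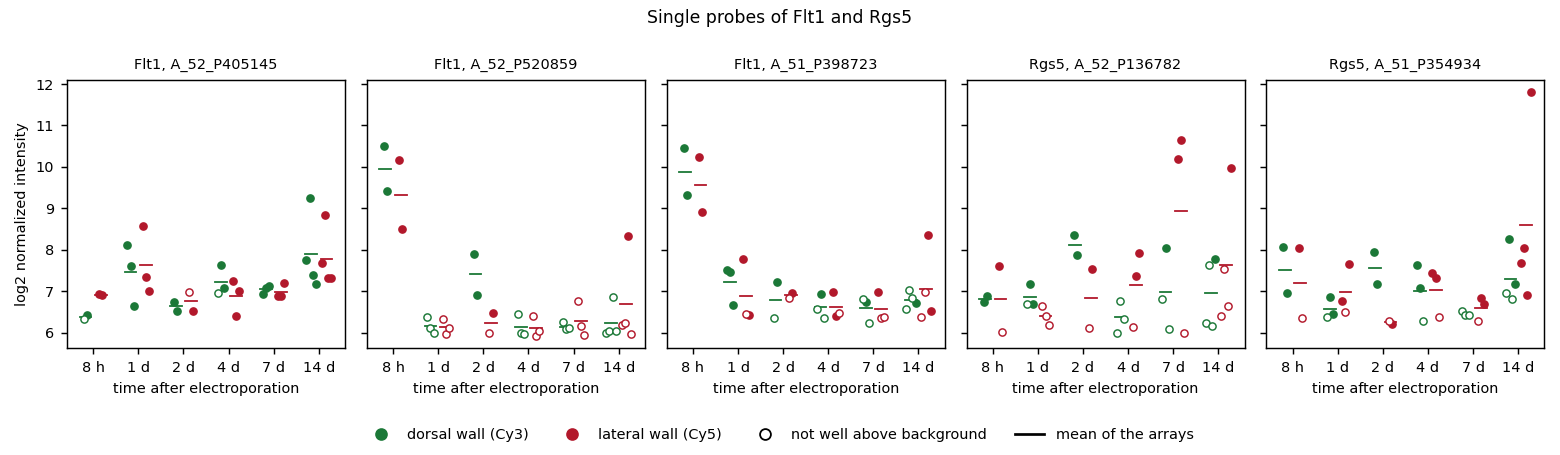
Log2 normalized intensity (y axis) of 3 probes of Flt1 and 2 of Rgs5 by time (x axis), 1 point per array and wall, open where not well above background, with bars for means. The 2 neighbouring Flt1 probes lie between 8.50 and 10.50 at 8 hours in both walls, where the brightest Flt1 probe lies between 6.32 and 6.92.

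Cdh5, the cadherin of endothelial adherens junctions, was higher in the lateral samples at 8 hours and in the dorsal samples at 1 day and 7 days on every array of those times. At 8 hours the lateral levels were 9.29 and 8.14 and the dorsal ones 7.07 and 7.47 (-1.44 ± 0.38, SE, n = 2; adjusted p = 0.21, limma). At 1 day the dorsal levels were 8.28, 7.71 and 6.80, and no lateral sample was well above background. The fitted difference was 1.20 ± 0.31 (2.30-fold, n = 3, adjusted p = 0.085, limma). The walls did not overlap at either time. At 7 days the dorsal levels were 8.58, 8.92 and 6.71 and the lateral ones 6.76, 8.04 and 5.90, which overlap (1.17 ± 0.31; adjusted p = 0.48, limma). None of these differences passed the test, where 1.10% of genes were called at 1 day and 0.0265% at 7 days. Its level in the lateral wall was 2.15 ± 0.54 lower at 14 days than at 8 hours, which missed the threshold (adjusted p = 0.061, limma). It passed without 1 day replicate 1, 7 days replicate 2 or 7 days replicate 3 (adjusted p = 0.048, 0.028 and 0.039). The second Cdh5 probe gave 6.67 and 7.61 in the dorsal and 6.80 and 7.64 in the lateral samples of 8 hours, so it did not show that wall difference.

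Cldn5, the main claudin of brain endothelial tight junctions, varied most. Its standard deviation over the 34 samples was 2.78, larger than that of 99.6% of genes. The levels left a gap, with 21 samples between 7.01 and 8.49 and 13 samples between 9.88 and 15.43 (the dividing value of 9 was chosen after the levels were seen). Both lateral samples of 8 hours (13.19 and 11.19), all 3 dorsal samples of 7 days (13.71, 13.84 and 9.88) and 6 of the 8 samples of 14 days lay above the gap. The others above it were the dorsal sample of 1 day replicate 2 (15.43, the highest) and the lateral sample of 2 days replicate 2 (10.19). No sample of 4 days did, with 7.01 to 7.97.

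The wall difference of Cldn5 at 8 hours was -5.03 ± 1.61 (32.7-fold, n = 2; adjusted p = 0.34, limma) and at 7 days 4.98 ± 1.32 (31.5-fold, n = 3; adjusted p = 0.47, limma). The dorsal levels at 8 hours were 7.11 and 7.20 and the lateral levels at 7 days 7.44, 8.02 and 7.03, so the walls did not overlap at either time, in opposite directions. Neither difference passed the test, nor did its change with time (adjusted p = 0.35, limma's F test). The spread behind these tests is shared by all arrays and includes 1 day, where the 3 differences were 0.66, 7.04 and -0.76, and 14 days, where they were -0.80, -2.62, -1.38 and 2.82. In the lateral wall the F test over time gave an adjusted p of 0.075 (limma), and 0.0079 without 14 days replicate 1. With arrays weighted by their quality the difference at 8 hours passed (adjusted p = 0.028).

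At 7 days, where the dorsal samples were high in Cldn5, 20 of the 25 other endothelial genes were higher in the dorsal samples (median 0.66, none called) and so were all 10 microglia genes (median 0.80, none called). The centred microglia means were 2.45, 2.24 and 1.83 in the dorsal and 0.99, 1.47 and 1.87 in the lateral samples. At 14 days 0 of the 10 microglia genes were higher in the dorsal samples (median -1.58, none called). The erythroid means at 7 days were 1.80, 0.32 and 1.09 in the dorsal samples and -1.06, -1.17 and -1.51 in the lateral ones, which do not overlap. For 4 of 5 choroid plexus genes the dorsal samples were higher (median 1.77, none called), with a mean of 4.03 in replicate 2. The part of these cells in the Cldn5 levels was not tested. On the array of 1 day replicate 2 the microglia mean was low in both walls, at -4.59 in the lateral sample, where Cldn5 was 8.39. In the dorsal sample of 1 day replicate 2, where Cldn5 was highest, the microglia mean was -3.56, the lowest of all dorsal samples.

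Pecam1, an adhesion molecule of endothelial contacts also carried by platelets and leukocytes, had its highest level in that same sample, at 10.79, and otherwise lay between 6.79 and 8.82. Its wall differences ran from -0.47 ± 0.49 at 14 days to 0.83 ± 0.56 at 1 day. The second Pecam1 probe was well above background in no sample. Esam, an immunoglobulin-like adhesion molecule of endothelial tight junctions, was also highest there, at 12.89, followed by the dorsal samples of 14 days replicate 2 (12.40) and 7 days replicate 2 (12.13), the lateral sample of 1 day replicate 1 (12.07) and the dorsal sample of 7 days replicate 1 (12.04). At 7 days its dorsal minus lateral difference was 2.29 ± 1.03 (adjusted p = 0.97, limma), with the third array at -0.07. Pecam1 and Esam were called in no comparison, save Pecam1 with some alternative processing.

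**Figure D3:**
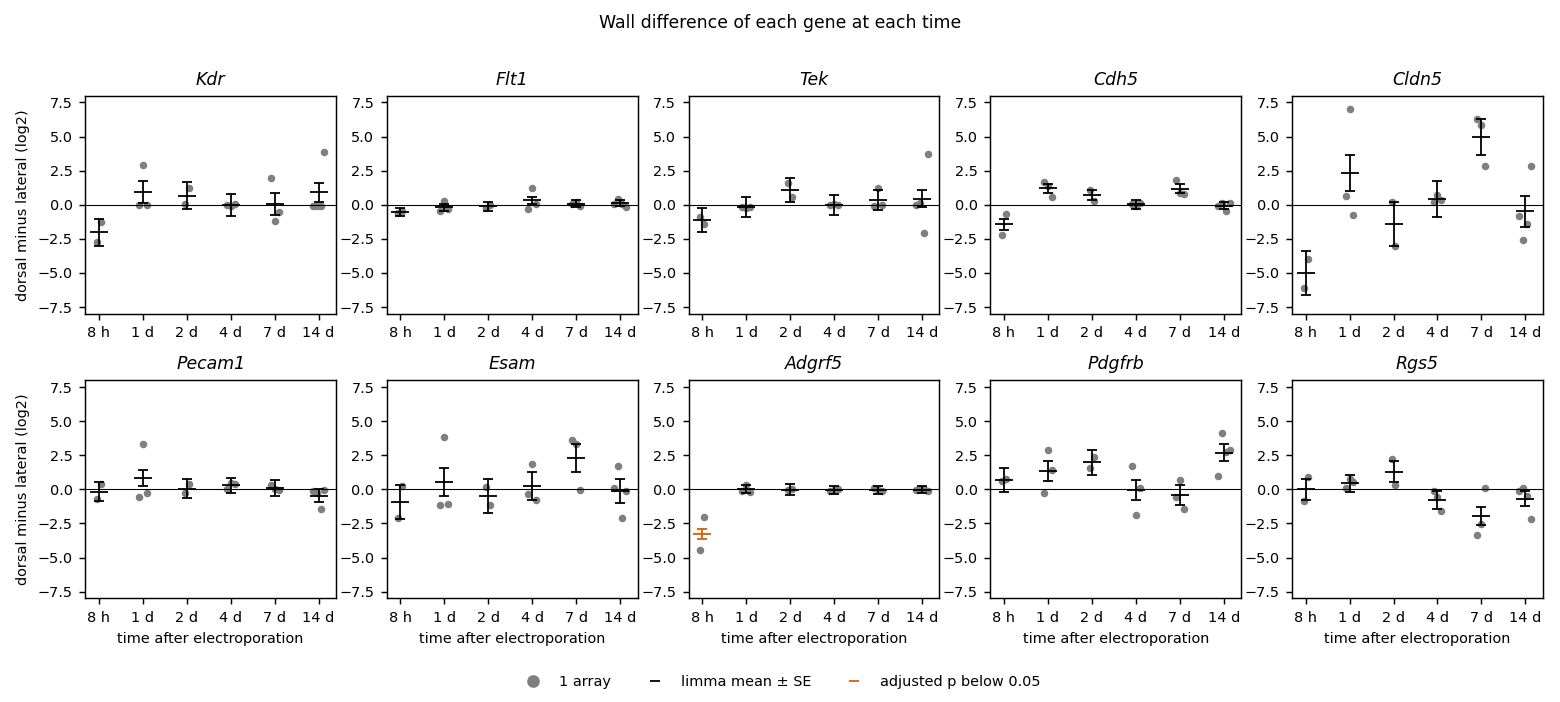
Dorsal minus lateral log2 difference (y axis) by time (x axis) for each gene, with grey points for single arrays and bars for the limma mean ± SE; the 1 called value is in orange. At 8 hours Adgrf5 lies at -3.25, and Cldn5 lies at -5.03 at 8 hours and at 4.98 at 7 days with wider error bars.

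Pdgfrb, the platelet-derived growth factor receptor of pericytes, followed another course. In the dorsal wall it was 12.37 and 12.27 at 8 hours, 13.70, 14.18 and 13.90 at 1 day, and 13.13 and 13.86 at 2 days. At 4 days it was 9.0, 9.0 and 8.68. The levels of 7 days were 10.84, 11.59 and 8.71, and those of 14 days 13.12, 13.41, 14.11 and 13.22. The dorsal samples of 4 days lay below all of those of 8 hours, 1 day, 2 days and 14 days, and overlapped those of 7 days. This time course passed the test (range of the means 5.03, adjusted p = 0.0014, limma's F test), the 1 member called against 3.48% of genes.

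In the lateral wall Pdgfrb was 11.73 and 11.52 at 8 hours, 13.94, 11.28 and 12.48 at 1 day, and 11.55 and 11.50 at 2 days, then 7.30, 10.92 and 8.55 at 4 days. It was 11.39, 10.88 and 10.17 at 7 days and 12.13, 9.29, 11.35 and 10.34 at 14 days. The lateral course did not pass (adjusted p = 0.23, limma's F test), and 4 days replicate 2 lay within the range of the other times.

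On the mean of both walls Pdgfrb fell by 3.60 ± 0.63 from 2 days to 4 days (12.2-fold, adjusted p = 0.023, limma), the 1 member called in this step against 0.627% of genes. Within the 2 slides that held both times the differences were -4.19 and -2.72, and with slide as a fixed block the step was -3.24 ± 0.57 (adjusted p = 0.059). It lost the call without either 2 days array (adjusted p = 0.19 and 0.25) and without 4 days replicate 1 or 3 (0.085 and 0.093). From 4 days to 7 days it was higher by 1.69 ± 0.57 (adjusted p = 0.71, limma), and by 0.83, 2.96 and 1.28 within the 3 slides that held both.

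Other lists differed at this step too. Of the 10 microglia genes 0 were higher at 4 days (median -2.39, none called), of 8 perivascular fibroblast genes 3 (median -0.28, none called) and of 6 erythroid genes 1 (median -0.63, none called). The dorsal microglia means were 2.30 and 1.17 at 2 days and -0.71 to -0.39 at 4 days, and the fibroblast means 0.29 and 0.09 and then -1.29 to -0.69. Of the 6 radial glia genes 0 were higher at 4 days than at 2 days (median -1.42, none called), and of the 6 neuroblast genes all 6 were (median 1.41, none called). The centred radial glia means in the dorsal wall were 1.19 and 1.26 at 2 days and -0.98 to -0.31 at 4 days, and the neuroblast means -0.90 and -0.67 and then 0.77 to 1.35. All 6 genes of each list were well above background in every sample. Of the other endothelial genes, 5 of 25 were higher at 4 days (median -0.53), and of the other mural genes 9 of 16 (median 0.15), where the median over all genes was 0.10. The part of these cells in the Pdgfrb result was not tested.

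At 14 days Pdgfrb was higher in the dorsal sample on all 4 arrays, by 0.98, 4.12, 2.76 and 2.88, with walls that did not overlap. The difference of 2.69 ± 0.63 (6.44-fold) missed the threshold (adjusted p = 0.16, limma), as did its mean over the 6 times (1.04 ± 0.31, adjusted p = 0.11), where the dorsal sample was higher on 13 of 17 arrays. At 14 days no member was called, and 0.0227% of genes were. At that time the dorsal samples were also higher for 5 of 6 radial glia genes (median 0.68), 0 of 6 neuroblast genes (-0.96) and 0 of 10 microglia genes (-1.58), none called. Over the mean of the 6 times, 2 radial glia genes were called higher in the dorsal samples, where 2.38% of all genes were called. They were Fabp7 (1.63 ± 0.25, adjusted p = 0.014, limma) and Slc1a3 (1.24 ± 0.21, 0.015). The neuroblast genes Dlx2 (-1.98 ± 0.12, adjusted p = 1.13e-05, limma) and Sox11 (-0.75 ± 0.12, 0.0098) were called lower there. No microglia gene was called. The part of these cells in the Pdgfrb differences was not tested.

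Rgs5, a regulator of G protein signalling enriched in pericytes, did not follow Pdgfrb (r = 0.04 over the 34 samples). Its highest levels were 10.64 and 10.20, in the lateral samples of 7 days replicates 2 and 1, and 9.98 in that of 14 days replicate 4, where the dorsal partners gave 8.05, 6.82 and 7.77. The perivascular fibroblast means were 2.94 and 2.12 in the first 2 of these samples, and -0.67 in the third. Fibroblast means were also high in samples with lower Rgs5. They were 2.71 and 1.52 in the dorsal samples of 7 days replicates 2 and 1 (Rgs5 8.05 and 6.82). In the lateral samples of 14 days replicates 3 and 1 they were 1.77 and 1.51 (Rgs5 6.65 and 6.40). The third lateral sample of 7 days gave 5.99, with a fibroblast mean of -1.35, and the wall difference at that time was -1.95 ± 0.64 (adjusted p = 0.73, limma). The second Rgs5 probe gave 6.84 and 6.29 in the lateral samples of 7 days replicates 2 and 1 and 11.81 in that of 14 days replicate 4, so the probes share the third of these high samples and not the first 2. The part of fibroblast RNA in these levels was not tested. No Rgs5 probe was called in any comparison.

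Across the members, the walls at 8 hours did not overlap for 7 of 10 genes, where those of 52.7% of all genes did not. Of the 7, 6 were higher in the lateral samples, as were 27.8% of all genes, and Pdgfrb was higher in the dorsal ones, as were 24.9%. These counts read the brightest probe of each gene. At 8 hours, Flt1 probes A_52_P520859 and A_51_P398723 were higher in the dorsal sample on both arrays. Of the remaining ones, A_52_P650151 was lower there on both arrays and A_52_P307922 went both ways. The second Cdh5 probe differed by -0.13 and -0.03, and those of Kdr and Tek were not well above background. At 1 day the walls of 3 members did not overlap (8.26% of genes). Cdh5 and Rgs5 were higher in the dorsal samples (5.03%) and Tek in the lateral ones (3.22%). Neither Tek nor the second Cdh5 probe was well above background in any 1 day sample, and the second Rgs5 probe went both ways. At 2 days the walls of 4 members did not overlap (48.1%), all 4 higher in the dorsal samples (24.4%). At 4, 7 and 14 days those of 1 member each did not overlap, against 10%, 10.2% and 1.63% of genes. With 2 arrays at 8 hours and at 2 days, walls that do not overlap are common among all genes. The median dorsal minus lateral difference of the 10 was -1.03 at 8 hours and 0.67 at 1 day, then 0.35, 0.02, 0.08 and -0.05 at the later times in order, whereas the median over all genes lay between -0.02 and 0.02 at every time. No member was called at 1, 2, 4, 7 or 14 days, where 0.181% of genes were called at 2 days and 0% at 4 days. At 4 days 1446 genes, and none of the 10, had an unadjusted p below 0.05 by limma.

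Over time, the median of the 10 between 8 hours and 14 days was 0.71 in the dorsal wall (all genes 0.14; none called, 1.52% of genes) and -0.37 in the lateral wall (all genes 0.23). On the mean of both walls no member was called from 1 day to 2 days, from 4 days to 7 days or from 7 days to 14 days, where 0.00378%, 0.0718% and 0.666% of genes were. From 4 days to 7 days 8 of the 10 were higher (median 0.76, all genes -0.05), and from 1 day to 2 days 2 were (median -0.54, all genes -0.16).

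The members followed each other only in part. Over the 34 samples the 45 pairs had a median Pearson r of 0.23, from -0.09 to 0.70, with 9 above 0.5 and 7 below 0. Kdr and Cldn5 (0.70), Pecam1 and Esam (0.69) and Kdr and Tek (0.60) were closest. No pair with Pdgfrb exceeded 0.32 and none with Rgs5 exceeded 0.18. These are descriptions, as samples share arrays, slides and an amplification.

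**Figure D4:**
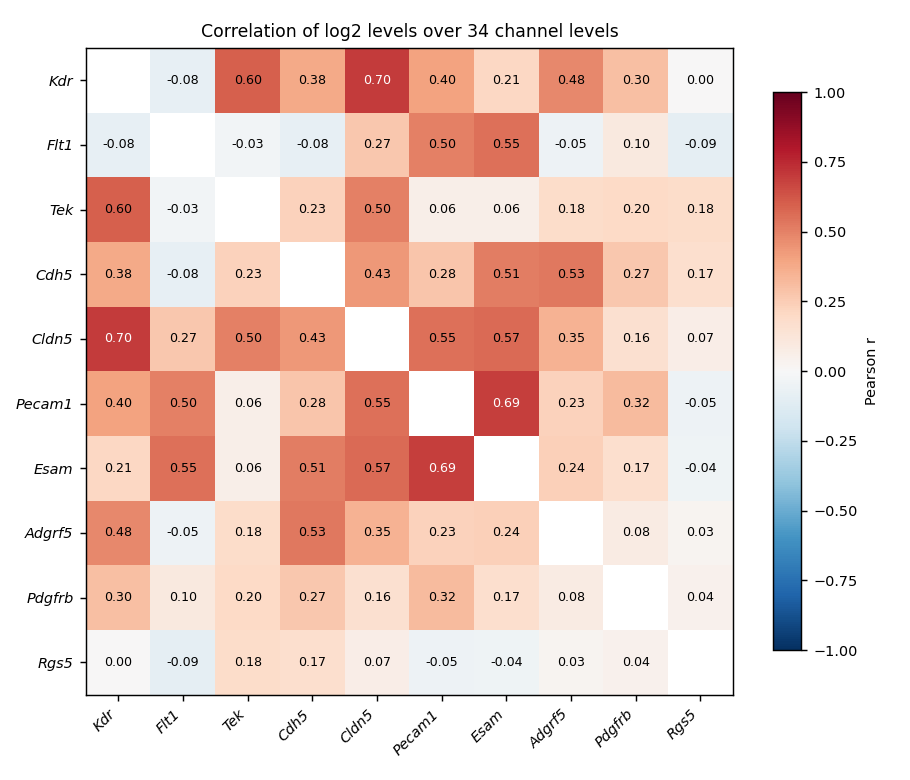
Pearson r of the log2 levels of each pair of the 10 genes over 34 samples, on a colour scale from -1 to 1. The highest values join Kdr with Cldn5 (0.70) and Pecam1 with Esam (0.69), and the row of Rgs5 stays between -0.09 and 0.18.

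Kdr and Cldn5, the closest pair, are shown by the 250 bases before their start in RefSeq (GRCm38.p6), 5′ to 3′ along the gene, with capitals at GGAA or its reverse TTCC, the core of sites for ETS factors, a family active in endothelial cells.
Kdr: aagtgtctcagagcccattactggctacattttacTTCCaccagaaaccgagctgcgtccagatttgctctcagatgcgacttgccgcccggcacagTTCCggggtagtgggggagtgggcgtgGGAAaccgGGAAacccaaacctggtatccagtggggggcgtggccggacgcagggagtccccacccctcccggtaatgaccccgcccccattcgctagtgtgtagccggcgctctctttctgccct
Cldn5: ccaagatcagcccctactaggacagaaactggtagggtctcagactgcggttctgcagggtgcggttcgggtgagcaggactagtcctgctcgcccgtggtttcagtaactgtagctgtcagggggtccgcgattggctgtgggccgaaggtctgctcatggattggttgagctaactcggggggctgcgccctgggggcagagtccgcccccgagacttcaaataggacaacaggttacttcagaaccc
The windows are chr5:75978456-75978705 on the minus strand and chr16:18776597-18776846 on the plus strand. The motif occurs 4 times before Kdr and 0 times before Cldn5. Of 32851 promoter windows of that length, 93.4% hold it at least once and 33.4% at least 4 times. For 6 of the 10 members a window was read, with counts of 4 for Flt1, 3 for Rgs5, 2 for Tek, and 7 and 5 for the 2 starts of Adgrf5. A match of 4 letters is a description of the sequence and no site.

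Other vessel genes, from lists that hold no member, moved partly with the 8 endothelial members. The mean of the 25 other endothelial genes correlated with the mean of the 8 at r = 0.72 over the 34 samples, that of 16 mural genes at 0.71 and that of 19 vessel signalling genes at 0.58, whereas the microglia mean gave -0.07 and the erythroid mean 0.31. In the dorsal sample of 1 day replicate 2 the mean of the 8 was 1.88 above its average and that of the other endothelial genes 1.40. In the lateral sample of 8 hours replicate 1 the values were 1.83 and 1.55. All 6 samples of 4 days were below average on both (-0.87 to -0.35 and -1.18 to -0.44). So were the lateral samples of 2 days (-0.67 to -0.50 and -0.35 to -0.29) and of 7 days (-0.75 to -0.14 and -0.89 to -0.34). The dorsal samples of 2 days were below average on the first mean (-0.71 to -0.36) and above it on the second (0.17 to 0.44).

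**Figure D5:**
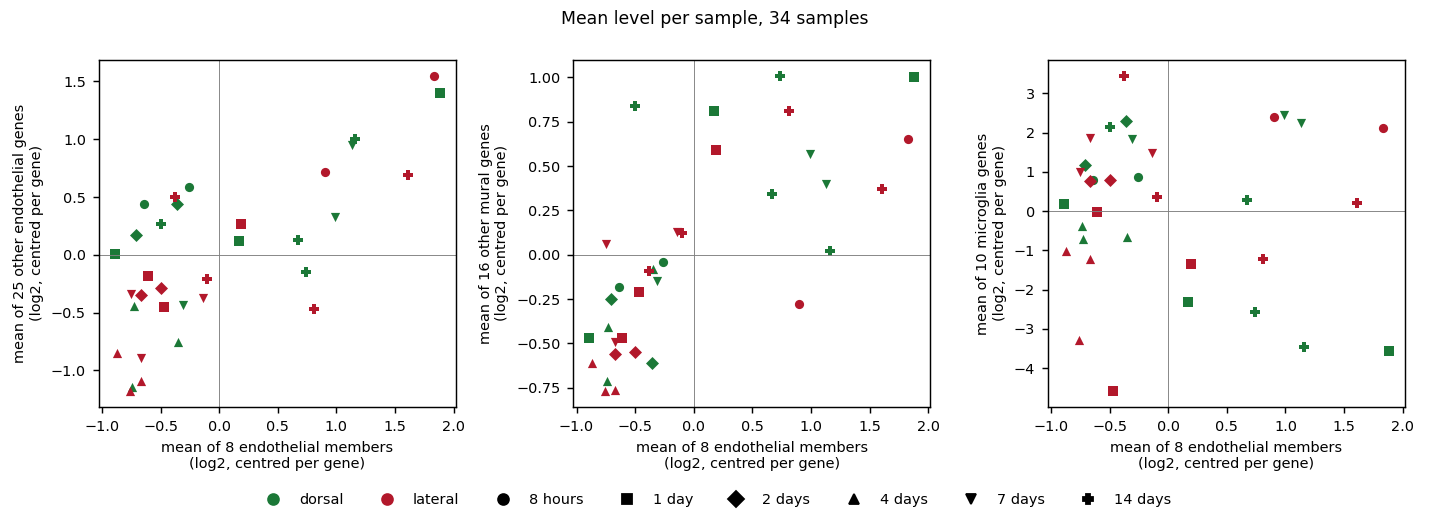
Mean log2 level of 25 other endothelial, 16 other mural and 10 microglia genes (y axes) against the mean of the 8 endothelial members (x axis) in each of the 34 samples, centred per gene; colour gives the wall and shape the time. The first 2 panels rise together (r = 0.72 and 0.71) and the microglia panel does not (r = -0.07).

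Of the 25 other endothelial genes, 1 was called in the mean wall difference, 1 in the step from 2 days to 4 days, 1 in that from 7 days to 14 days, 2 in the dorsal and 3 in the lateral time course. The shares of all genes called were 2.38%, 0.627%, 0.666%, 3.48% and 4.64%, in that order. Mfsd2a, a lipid transporter of the blood-brain barrier, was higher in the dorsal wall over all times (1.20 ± 0.26, adjusted p = 0.034, limma). Ly6a, a surface antigen of endothelial and stem cells, fell by 4.19 ± 0.65 from 2 days to 4 days (adjusted p = 0.013) and rose by 2.88 ± 0.55 from 7 days to 14 days (adjusted p = 0.037). The transporter Slco1c1 (adjusted p = 0.0012) and Itm2a (0.0039) changed over time in the lateral wall, by limma's F test.

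Of 16 other mural genes measured, 2 were higher in the dorsal wall over all times (2.38% of genes were called there), the Notch receptor Notch3 (1.34 ± 0.28, adjusted p = 0.026, limma) and the smooth muscle protein Cnn1 (1.12 ± 0.27, adjusted p = 0.049). From 8 hours to 14 days in the dorsal wall 1 of the 16 was called, against 1.52% of genes. Vtn, an extracellular protein made by brain pericytes, rose by 8.07 ± 1.71 (adjusted p = 0.032, limma). Of 19 vessel signalling genes, 1 was called there and 1 from 8 hours to 1 day, against 1.52% and 1.42% of genes. The growth factor Vegfc fell by 2.46 ± 0.54 between these times in the dorsal wall (adjusted p = 0.037, limma), and the neuropilin Nrp2 fell by 4.20 ± 0.93 from 8 hours to 1 day (adjusted p = 0.043). None of 8 perivascular fibroblast genes was called in the mean wall difference, and 3 changed over time in the dorsal wall (3.48% of genes), the collagen Col3a1 (adjusted p = 0.033, limma's F test) among them.

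Among 20531 genes well above background in at least 17 samples, those most like the mean of the 8 endothelial members were Unc45b and Col4a2 (r = 0.75), Tmem252 (0.72), 1500035N22Rik and Vwf (0.69), Vwa1 (0.64), and Igfbp7, Cd93, Gm4907 and the unnamed probe A_51_P173547 (0.63). Those most like the mean of Pdgfrb and Rgs5 included Pbxip1 and Col16a1 (0.77), Erf (0.75) and Chchd10 (0.72). Pdgfrb alone gave r = 0.69 with the radial glia mean, -0.70 with the neuroblast mean, 0.65 with that of the other endothelial genes and 0.44 with that of the other mural genes, over the same 34 samples.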

How the data were processed

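The authors deposited each spot's intensity, on a linear scale, from Agilent's scanner software Feature Extraction (version 10.7.3.1 for 8 arrays and 10.5.1.1 for 9), per the file headers. The deposited files also hold processed intensity after background subtraction and dye normalization, used as an alternative, and a log10 ratio of red over green, used to find the direction of the deposited log2 value table (r of -0.97 to -0.90 on 41174 probes, so dorsal over lateral; no source used here gives its normalization). Its column medians, in order of time and replicate, were -0.0095, -0.0094, -0.022, -0.071, -0.056, -0.027, -0.033, -0.0052, 0.046, -0.021, -0.013, -0.034, -0.013, -0.092, -0.16, 0.0028 and 0.0015.

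Background was corrected by normexp (offset 50), log ratios by loess within arrays and mean intensities by quantiles between arrays (Aquantile). Outlier spots (0.32 to 2.61% per array) were left out. A probe was kept when 2 or more arrays had it well above background in 1 of the channels, and the brightest probe stood for a gene. Of 41174 probes, 26876 were named by accession and 3241 by symbol through RefSeq (GRCm38.p6).

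A single fit of the 17 arrays, with 1 coefficient for each time, was made in limma 3.58.1 (R 4.3.3 with the package data.table, version 1.17.8), two-sided, with Benjamini-Hochberg adjustment over all genes and a threshold of 0.05. This was run for log ratios, for each channel's level and for the mean of both. An "at least" fold used, per array, the higher of the probe's signal and the lowest well above background, and is open to dye bias. It takes no account of the spread between arrays. All 10 members were named; of the other lists, at most 3 called genes with the smallest adjusted p per comparison; by likeness, the 10 and 5 genes with the highest r, of which 1 is not reported here. The members and lists were chosen with earlier results of these data known. The fit was tested on simulated data. Figures used matplotlib 3.10.9 in Python 3.11.15.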

Additional observations from a re-analysis of the deposited data

Results flagged for a closer look

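The 30 groups of 4 tested were each member's dorsal, lateral and difference values at 14 days, the only time with 4 arrays. Of these, 6 had 1 array far from the other 3. Chance flags about 1 in 20 of independent groups with a normal spread. These groups share arrays, each difference comes from levels also tested, and many Kdr and Tek levels were not well above background. The count is thus a description and cannot be set against that rate. Kdr in the lateral wall was 9.85 in replicate 3, against 6.37, 6.45 and 6.63. The Kdr wall difference was 3.86 in replicate 4, against -0.12, -0.09 and -0.07. Tek in the dorsal wall was 10.12 in replicate 4, against 6.26, 6.65 and 6.89, and in the lateral wall 8.99 in replicate 3, against 6.26, 6.36 and 6.50. Pecam1 in the dorsal wall was 8.36 in replicate 2, against 7.25, 7.39 and 7.43. The Pecam1 wall difference was -1.43 in replicate 3, against -0.27, -0.10 and -0.08. Replicate 2 is the array of 14 days that stood apart, and the 5 other values came from replicates 3 and 4.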

How the results depend on the processing

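Of 170 values (10 genes in 17 comparisons), 7 were called, and none of these 7 changed sign in any alternative. Flt1 was not among the 7, and alternatives called it in opposite directions. From 8 hours to 14 days in the dorsal wall it was 1.18 with array weights (adjusted p = 0.038, limma) and 1.53 with slide as a random block (0.016). There it was -1.33 with probes averaged (0.042) and -3.72 by probe A_52_P520859 (4.14e-04). Its step from 8 hours to 1 day was 0.71 with array weights (0.035) and -3.49 by that probe (0.0028). Leaving dim probes in kept all 7 calls, and so did averaging the probes of a gene, whereas the stricter filter removed Adgrf5, so its counts were 0 in the mean wall difference, at 8 hours, from 8 hours to 1 day, and in both lateral comparisons. The mean wall difference of Adgrf5 was the least stable: its adjusted p was 0.23 with the scanner's processed signals, 0.13 with median centring, 0.052 with quantile normalization, 0.061 with array weights, 0.22 with the replicate block, 0.11 in the deposited value table and 0.059 with each probe on its own, and the count there was 0 in these but array weights, where Pdgfrb passed, and 0 without both arrays that stood apart. In the deposited value table Adgrf5 at 8 hours was -5.18 (adjusted p = 0.098), a count of 0.

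With slide as a random block, whose estimated correlations were negative, counts were 3 (14 days against 8 hours, dorsal), 3 (lateral), 2 (change with time), 2 (mean wall), 2 (8 hours to 1 day), 3 (dorsal course), 7 (lateral course), 1 (1 day), 1 (14 days) and 2 (8 hours). With array weights they were 1, 2, 2 (8 hours to 1 day), 1 (1 day to 2 days), 4 (dorsal course), 2 (lateral course) and 3 (8 hours). With each probe on its own they were 1 and 2 for 14 days against 8 hours, 2 for 8 hours to 1 day and 2 for the dorsal course, and with probes averaged 1 and 2 for 14 days against 8 hours. Processed signals gave 2 for the dorsal course and 1 at 1 day. With slide as a fixed block, from 2 days to 4 days, the count was 0. Leaving out 1 array gave counts of 0 to 1 for the mean wall difference, the change with time and the steps from 8 hours to 1 day and from 2 days to 4 days, and 1 to 2 for 14 days against 8 hours and the time course in the lateral wall. The causes were not tested.

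With replicate number as a block, 5 of 7 calls held: the mean wall difference of Adgrf5 was -0.60 and the Pdgfrb step from 2 days to 4 days -3.48 (adjusted p = 0.080), counts of 0. Of 36 pairs of same-numbered arrays, 0 had wall differences that correlated over 0.1, and 5 had mean levels that did (up to 0.32). Since not every pair did, the numbers were not taken as pairs, although 7 of the 36 also share a slide. Median centring moved the median of all genes to -0.21 over all times and -0.38 at 14 days, with 1712 genes called higher and 4431 lower in the mean wall difference. Signal near background limits Adgrf5, Tek, Cdh5, Rgs5 and Kdr, well above background in 5, 9, 15, 15 and 16 of 34 samples, and their folds can be understated.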
